A study of Mus musculus with 12 samples.

Results

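The genes described are 10 genes for proteins of neutrophil granules, taken by symbol from a table of 55450 mouse genes. Of these, 5 belong to the primary granules or the cells that make them (Mpo, Elane, Prtn3, Ctsg and Ms4a3) and 5 to the secondary and later granules (Ltf, Lcn2, Camp, Ngp and Chil3). RNA was sequenced from donor bone marrow cells that lack lineage markers and carry the receptor Kit, sorted from mice that had received competitive bone marrow transplants. The 12 libraries carry 4 genotype labels, with 3 libraries each: WT, Tet2KO (the DNA demethylase Tet2 knocked out), Id1KO (the helix-loop-helix inhibitor Id1 knocked out) and dKO (both). All of them are donor cells that had grown in a transplant recipient. The strain, the age, the time after transplant, the knockout alleles and the number of mice pooled are not given in the sources used here. Each genotype has 1 sample number in the library titles, so its 3 libraries may be repeats of 1 cell sample, and p-values measure only the spread between these libraries.

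Neutrophils fill their granules in an order that follows their maturation. Promyelocytes, which arise from granulocyte-monocyte progenitors, make the primary (azurophil) granules with myeloperoxidase and serine proteases. Myelocytes and later cells make the secondary (specific) and tertiary granules with lactoferrin, lipocalin and cathelicidin, under transcription factors that include C/EBP epsilon. Cells that are sorted for Kit and against lineage markers are therefore mostly earlier than the stage at which secondary granules form.

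All 10 genes are protein coding. Gene positions are given on GRCm38 from GENCODE M21. Prtn3 (chr10:79874476-79883174) and Elane (chr10:79886247-79888215) lie on the plus strand with a gap of 3.07 kb and no annotated gene between them. Camp, Ngp and Ltf lie along chromosome 9, with 22 genes between Camp and Ngp and 29 between Ngp and Ltf. RefSeq's promoter table for GRCm38.p6 held all 10 genes. The 250 bases before each RefSeq start were searched on both strands for a few short motifs. TTNNGNAA stood for C/EBP, and GAGGAA stood for PU.1. The letters AACGG were taken for MYB, and for RUNX the letters ACCACA were used. A TATA box was read as TATAA. No matches of different motifs overlapped in the members. The neighbours Elane and Prtn3 are shown because they were the only members with a match to AACGG, and in both it stood just before a TATAA match. Capitals mark the matches, and the stretches are chr10:79886262-79886285 for Elane and chr10:79879612-79879639 for Prtn3, both on the plus strand. GENCODE exons begin before both RefSeq starts. The Elane stretch begins past the first GENCODE base of the gene (79886247), and in Prtn3 the last base before an exon is 79879613.
Elane: AACGGcctctggttccagcTATAA
Prtn3: AACGGctcccggcagagctgggcTATAA

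The match to AACGG began 50 bases before the RefSeq start of Elane and 55 bases before that of Prtn3, with 14 and 18 bases between it and TATAA. Of all 32851 promoter windows, 14.53% held AACGG and 22.78% held TATAA. A match to GAGGAA was found before 4 of 5 primary genes (not Ms4a3) and 2 of 5 secondary genes (Ltf and Lcn2), against 23.25% of all windows. TTNNGNAA was found before 1 of 5 primary genes (Ms4a3) and 4 of 5 secondary genes (not Camp), against 36.85% of all windows, so it is a common pattern. The next windows show a primary gene with a RUNX match (Ctsg, chr14:56102575-56102694, minus strand), the primary gene with a C/EBP match (Ms4a3, chr19:11640852-11640971, minus strand), and 2 secondary genes with C/EBP matches (Ltf, chr9:111019172-111019270, plus strand, and Chil3, chr3:106167565-106167684, minus strand). Each ends at the last base before the RefSeq start, except that of Ltf, which stops where a GENCODE exon begins. A match is a run of letters and not a measured binding site.
Ctsg: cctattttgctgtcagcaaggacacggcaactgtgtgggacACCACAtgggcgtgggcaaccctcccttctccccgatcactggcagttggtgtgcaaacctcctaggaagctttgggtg
Ms4a3: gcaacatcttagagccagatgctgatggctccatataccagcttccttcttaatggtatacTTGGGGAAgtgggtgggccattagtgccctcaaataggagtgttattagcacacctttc
Ltf: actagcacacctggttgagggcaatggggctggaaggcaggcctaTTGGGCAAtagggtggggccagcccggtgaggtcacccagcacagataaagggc
Chil3: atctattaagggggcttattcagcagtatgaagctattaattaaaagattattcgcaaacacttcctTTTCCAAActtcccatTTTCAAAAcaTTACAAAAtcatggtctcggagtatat

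The libraries held 15706368 to 19959153 counts each. Tet2 was not lower in the libraries labelled as Tet2 knockouts, at 127.2 to 132.2 CPM (counts scaled to the TMM-adjusted size of the library) in Tet2KO and 114.7 to 120.8 in dKO against 97.6 to 101.8 in WT. Id1 was not lower in those labelled as Id1 knockouts either, at 3.70 to 4.35 CPM in Id1KO and 3.35 to 4.25 in dKO against 1.24 to 1.76 in WT. In Tet2KO it stood at 3.61 to 4.35 CPM, so every other label was above WT. Whole-gene counts do not show whether a transcript lacks an exon, so the groups are called by their labels throughout, and each direction below rests on labels that these 2 genes do not bear out. Kit, the receptor used for sorting, had means of 315 to 365 CPM, and Ly6g, which marks mature neutrophils, had at most 2 counts in a library. The 12 pairs of libraries within a genotype differed by 1.18 to 2.10 times sampling noise, and the 54 pairs between genotypes by 2.89 to 5.94 times. One library, dKO replicate 2, stood apart from the others of its label, by 2.10 and 1.95 times sampling noise against 1.24 between dKO replicates 1 and 3. It held the lowest CPM of the 3 dKO libraries for Mpo, Elane, Prtn3 and Ctsg, and results of the members in dKO that change without it are given both ways. Of 153 called results of other named genes, 9 lost their call without dKO replicate 2, and these are not marked. Mitochondrial and small structural RNA took 10.5 to 10.9% of the counts in the WT libraries and 7.40 to 8.34% in the 9 others.

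The primary genes were among the most abundant transcripts of these cells, and the secondary genes were low. Per kilobase of exon, Mpo had a mean of 2773 CPM and ranked 9 of 14346 genes, while the 5 secondary genes ranked 8989 to 10994. Elane (1426 CPM per kb), Ctsg (1200), Prtn3 (804) and Ms4a3 (201) followed. In the order of these primary levels only Elane and Ctsg overlapped in range, at 1176 to 1609 and 1037 to 1323 CPM per kb. Lcn2 (2.91 CPM per kb), Ngp (2.82), Chil3 (2.27) and Camp (2.25) overlapped in range with each other and were not told apart by level. Ltf was the lowest at 1.14 CPM per kb, with a range of 0.887 to 1.58 that overlapped those of Chil3 and Camp. The lowest primary gene, Ms4a3, stood 68.9 times above the highest secondary gene, Lcn2, in mean CPM per kb.

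**Figure D1:**
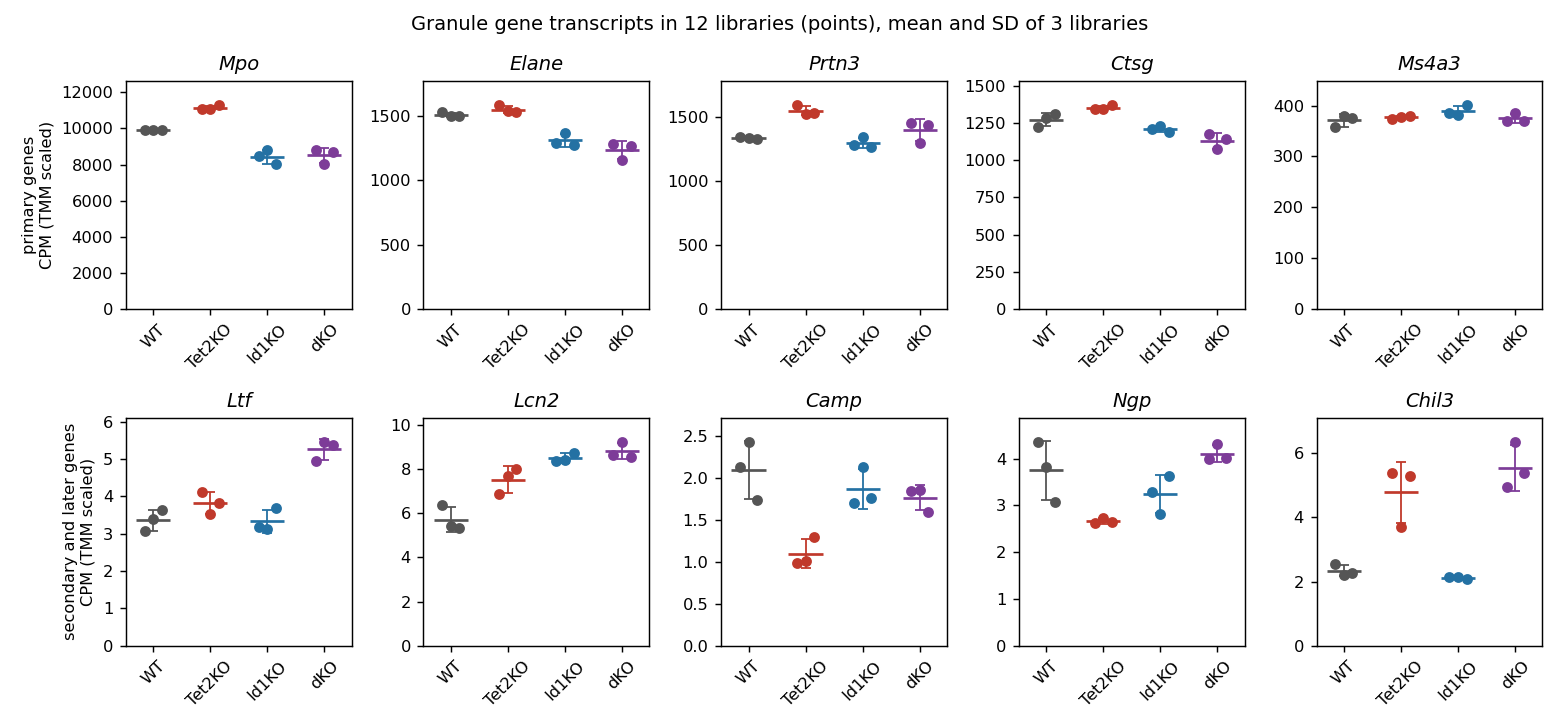
Transcript level of each of the 10 genes in CPM after TMM scaling (vertical axes, each from 0) in the 12 libraries (points), by genotype label, with the mean and SD of 3 libraries as bars. Primary genes (top row) stand at 357.3 to 11272 CPM, and secondary genes (bottom row) at 0.980 to 9.22 CPM, with Chil3 high in both labels that carry the Tet2 knockout and Camp low in Tet2KO.

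Mpo (chr11:87793581-87804413, plus strand) makes hypochlorous acid from hydrogen peroxide and chloride and is the most abundant primary granule protein. It stood at 9917, 9889 and 9928 CPM in WT, 11090, 11061 and 11272 in Tet2KO, 8449, 8799 and 8035 in Id1KO, and 8824, 8021 and 8671 in dKO. Tet2KO was above WT and WT above both other labels without overlap, while Id1KO and dKO overlapped. By edgeR's quasi-likelihood test, with p adjusted over all genes tested, Mpo rose by 0.17 ± 0.034 on the log2 scale (SE) in Tet2KO against WT (adjusted p = 0.00063). It fell by 0.23 ± 0.034 in Id1KO against WT (edgeR adjusted p = 7.29e-05) and by 0.39 ± 0.034 in dKO against Tet2KO (edgeR adjusted p = 5.13e-08).

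Elane encodes neutrophil elastase, a serine protease. Its level was 1531, 1503 and 1501 CPM in WT, 1583, 1539 and 1530 in Tet2KO, 1295, 1367 and 1274 in Id1KO, and 1288, 1157 and 1269 in dKO. WT and Tet2KO overlapped, and both stood above Id1KO and dKO. Elane fell by 0.20 ± 0.035 in Id1KO against WT (edgeR adjusted p = 0.000423) and by 0.32 ± 0.035 in dKO against Tet2KO (edgeR adjusted p = 1.05e-06). In Tet2KO against WT the difference was 0.04 (log2), with an edgeR adjusted p of 0.458.

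Prtn3 encodes proteinase 3, a close relative of elastase. It was measured at 1341, 1332 and 1328 CPM in WT, 1589, 1522 and 1531 in Tet2KO, 1283, 1342 and 1261 in Id1KO, and 1452, 1297 and 1435 in dKO. All Tet2KO libraries were above all others, and the 3 other labels overlapped. Prtn3 rose by 0.21 ± 0.035 in Tet2KO against WT (edgeR adjusted p = 9.89e-05) and fell by 0.15 ± 0.035 in dKO against Tet2KO (edgeR adjusted p = 0.00362). Unlike Mpo and Elane it did not pass the test in Id1KO against WT, where the difference was -0.04 (edgeR adjusted p = 0.473), and whether the genes differ in this was not tested. An exon of Plppr3 on the opposite strand shares 159 bp with Prtn3, so reads there may be shared if strand was not used in counting.

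Ctsg (chr14:56099881-56102574, minus strand) encodes cathepsin G, the third serine protease of these granules. Its libraries held 1224, 1284 and 1307 CPM in WT, 1343, 1341 and 1366 in Tet2KO, 1211, 1228 and 1185 in Id1KO, and 1177, 1071 and 1141 in dKO. All dKO libraries were below all others, and WT overlapped Id1KO. Ctsg fell by 0.17 in dKO against WT (edgeR adjusted p = 0.000743) and by 0.26 ± 0.032 in dKO against Tet2KO (edgeR adjusted p = 7.24e-06). Its rise of 0.09 ± 0.032 in Tet2KO against WT (edgeR adjusted p = 0.0451) was lost without WT replicate 1 or 2, any Tet2KO replicate or Id1KO replicate 2, with edgeR adjusted p of 0.0535 to 0.156.

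Ms4a3 (chr19:11629496-11640851, minus strand) encodes a membrane protein that marks granulocyte-monocyte progenitors and promyelocytes. It read 357.3, 380.6 and 375.9 CPM in WT, 373.4, 378.4 and 379.8 in Tet2KO, 385.2, 380.9 and 400.3 in Id1KO, and 369.1, 385.8 and 369.8 in dKO. The Id1KO libraries lay just above those of WT and Tet2KO, which overlapped, and dKO overlapped every other label. The difference between Id1KO and WT was 0.07 (edgeR adjusted p = 0.142), farther from 0 than in the 4 other comparisons of labels. Ms4a3 passed the test in none of the 6 comparisons at an adjusted p of 0.05. Per count of Ms4a3 there were 29.5 ± 0.27 counts of Mpo in Tet2KO (SD, n = 3 libraries), 26.7 ± 0.92 in WT, 22.7 ± 1.68 in dKO and 21.7 ± 1.53 in Id1KO. These means have the same order as those of Mpo itself.

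Ltf (chr9:111019271-111042767, plus strand) encodes lactoferrin, the iron-binding protein of secondary granules. It had 3.06, 3.40 and 3.62 CPM in WT, 4.11, 3.51 and 3.82 in Tet2KO, 3.18, 3.12 and 3.69 in Id1KO, and 4.94, 5.45 and 5.38 in dKO, from 58 to 91 counts a library. The dKO libraries were above all others, which overlapped among themselves. Ltf rose by 0.65 ± 0.126 in dKO against WT (edgeR adjusted p = 0.000968) and by 0.66 ± 0.127 in dKO against Id1KO (edgeR adjusted p = 0.000844). Its rise of 0.46 ± 0.125 in dKO against Tet2KO had an adjusted p of 0.00932 with edgeR and 0.0911 with DESeq2.

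Lcn2 (chr2:32384633-32388252, minus strand) encodes lipocalin 2, which binds the siderophores with which bacteria take up iron. It showed 6.38, 5.41 and 5.35 CPM in WT, 6.86, 7.68 and 8.02 in Tet2KO, 8.35, 8.43 and 8.75 in Id1KO, and 8.62, 9.22 and 8.57 in dKO. WT was below all other labels, and Tet2KO below Id1KO and dKO, which overlapped. Lcn2 rose against WT by 0.40 ± 0.103 in Tet2KO (edgeR adjusted p = 0.00523), 0.57 ± 0.100 in Id1KO (0.000515) and 0.62 ± 0.101 in dKO (0.000158).

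Camp (chr9:109847379-109849617, minus strand) encodes the cathelicidin antimicrobial peptide. It stood at 2.13, 2.42 and 1.73 CPM in WT, 0.980, 1.01 and 1.29 in Tet2KO, 1.70, 2.13 and 1.76 in Id1KO, and 1.84, 1.86 and 1.59 in dKO. The Tet2KO libraries, with 16 to 24 counts each, were below all others, and the 3 other labels overlapped. Camp fell by 0.92 ± 0.211 in Tet2KO against WT (edgeR adjusted p = 0.00208). Its rise of 0.67 ± 0.223 in dKO against Tet2KO (edgeR adjusted p = 0.0306) was lost without Tet2KO replicate 1 or 2 or dKO replicate 1 or 2 (0.0761 to 0.0995) and with DESeq2 (adjusted p = 0.15).

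Ngp (chr9:110419747-110423012, plus strand) encodes neutrophilic granule protein, a relative of cathelicidin and the cystatins. It reached 4.35, 3.82 and 3.08 CPM in WT, 2.63, 2.74 and 2.64 in Tet2KO, 3.29, 2.81 and 3.63 in Id1KO, and 3.99, 4.31 and 4.02 in dKO. As with Camp, every Tet2KO library was below all others. Ngp rose by 0.62 ± 0.154 in dKO against Tet2KO (edgeR adjusted p = 0.00513). Its fall by 0.49 ± 0.152 in Tet2KO against WT (edgeR adjusted p = 0.0175) was lost without WT replicate 1 or 2 or Tet2KO replicate 3 (0.0501 to 0.104) and with DESeq2 (adjusted p = 0.107).

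Chil3 (chr3:106147554-106167564, minus strand) encodes the chitinase-like protein Ym1, which neutrophils store and some macrophages secrete. It came to 2.54, 2.22 and 2.27 CPM in WT, 5.39, 3.69 and 5.28 in Tet2KO, 2.14, 2.13 and 2.09 in Id1KO, and 4.94, 6.35 and 5.38 in dKO. Every library of the 2 labels with the Tet2 knockout was above every library of the 2 labels without it. Chil3 rose by 1.03 ± 0.160 in Tet2KO against WT (edgeR adjusted p = 5.18e-05) and by 1.39 ± 0.161 in dKO against Id1KO (edgeR adjusted p = 3.05e-06), the largest differences of any member in those comparisons. It resembles Chil4 (94.3% identical over 1540 bp) and Gm6522 (95.0% over 1171 bp), which had 0 counts in every library. How reads that match more than 1 copy were shared is not given in the sources used here.

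In Tet2KO against WT 3 of 5 primary genes rose (Mpo, Prtn3 and Ctsg) and none fell. Elane and Ms4a3 did not pass. Of the secondary genes 2 rose (Lcn2 and Chil3) and 2 fell (Camp and Ngp). In all 7 of 10 members were called. Of the 14346 genes tested, 32.8% were called, 16.6% higher and 16.2% lower. The median log2 difference was 0.09 over the primary genes, 0.18 over the secondary genes and -0.003 over all genes tested. In bulk RNA, fewer cells of a type and less RNA per cell cannot be told apart. Markers of erythroid cells moved in the same comparison: 12 of 12 were lower, with a median of -0.82, and their summed level was 1097 to 1110 CPM in Tet2KO against 1804 to 1861 in WT. Their part in the result was not tested.

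In Id1KO against WT 2 primary genes fell (Mpo and Elane), 1 secondary gene rose (Lcn2) and the 7 others did not pass the test. That is 3 of 10 members, against 15.0% of all genes tested, 7.26% higher and 7.77% lower. The median was -0.07 over the primary genes and -0.14 over the secondary genes, of which 4 did not pass. Of the 12 erythroid markers 2 rose, none fell and 10 did not pass, near the 15.0% of all genes called. Their median was 0.03, and their summed level was 2016 to 2037 CPM in Id1KO against 1804 to 1861 in WT. Of 7 megakaryocyte markers 3 rose and none fell, at a summed 223.9 to 237.3 CPM against 157.8 to 164.2 in WT. Of 8 mast cell, basophil and eosinophil markers 2 rose and none fell, at 473.8 to 479.0 CPM against 381.6 to 397.3. Of the monocyte and dendritic markers 8 of 9 tested were lower, at a summed level of 1829 to 1850 CPM against 2040 to 2110 in WT, and the part of these lists in the result was not tested.

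In the libraries labelled dKO against WT, 3 primary genes fell (Mpo, Elane and Ctsg) and 3 secondary genes rose (Ltf, Lcn2 and Chil3), with 6 of 10 members called against 19.2% of all genes tested (10.2% higher, 8.97% lower). Without dKO replicate 2, Prtn3 also passed, as higher in dKO than in WT by 0.12 (edgeR adjusted p = 0.00693, against 0.06 with all libraries), which made 7 members. Against Tet2KO, 4 primary genes fell (all but Ms4a3) and 3 secondary genes rose (Ltf, Camp and Ngp), with 7 of 10 members called against 26.4% of all genes (13.1% higher, 13.4% lower). Without dKO replicate 2 these were 6, since Camp no longer passed. The medians against Tet2KO were -0.26 over the primary genes and 0.46 over the secondary genes. All 12 erythroid markers rose in the same comparison, with a median of 0.88 and a summed level of 1832 to 1835 CPM in dKO, and their part was not tested. Against Id1KO, Ltf and Chil3 rose. Prtn3 rose by 0.11 ± 0.035 (edgeR adjusted p = 0.0401, libraries overlapping) and Ctsg fell by 0.10 ± 0.032 (edgeR adjusted p = 0.0409), which made 4 of 10 members called against 19.3% of all genes (10.6% higher, 8.7% lower). Both were lost without any of 7 single libraries. For Prtn3 these were WT replicate 3, Tet2KO replicates 2 and 3, Id1KO replicates 1 and 3 and dKO replicates 1 and 3, with edgeR adjusted p of 0.0508 to 0.187. For Ctsg they were Tet2KO replicates 1, 2 and 3, Id1KO replicates 1 and 2 and dKO replicates 2 and 3, with edgeR adjusted p of 0.0509 to 0.161. Without dKO replicate 2, 3 members passed against Id1KO (Prtn3, Ltf and Chil3).

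**Figure D2:**
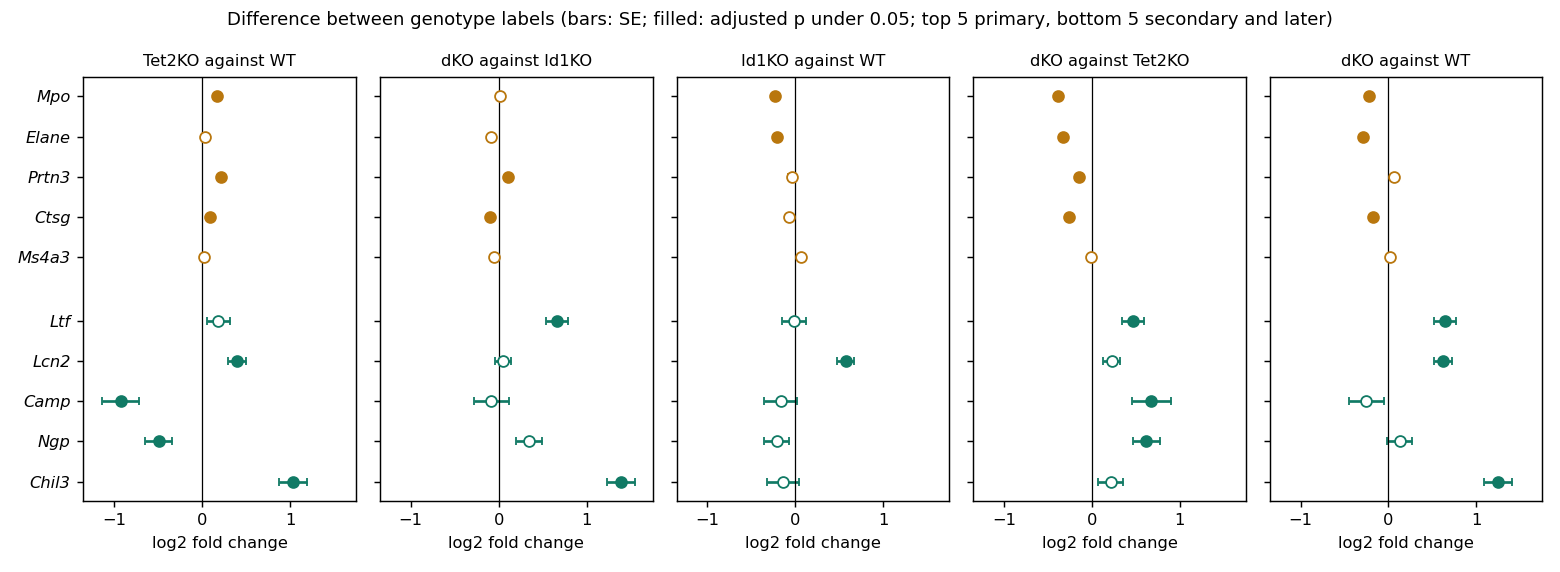
Log2 fold change of each gene (horizontal axis) in 5 comparisons of genotype labels, with SE bars and filled points where the edgeR adjusted p is under 0.05. The primary genes (upper 5) stay within 0.39 of 0 and lie at or below 0 in dKO against Tet2KO, while the secondary genes (lower 5) spread from -0.92 to 1.39 and lie above 0 there.

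Whether the Id1 label acted alike with and without the Tet2 label was tested by the interaction, the difference dKO against Tet2KO less the difference Id1KO against WT. It passed for 3 of 10 members, where 14.5% of all genes passed, 7.46% with a positive and 7.03% with a negative value. It was -0.18 ± 0.046 on the log2 scale for Ctsg (edgeR adjusted p = 0.0101). For Ngp it had the other sign, at 0.83 ± 0.212 (edgeR adjusted p = 0.0115, DESeq2 adjusted p = 0.0751). That of Mpo was -0.16 ± 0.048 (edgeR adjusted p = 0.0328) and was lost without WT replicate 3, Tet2KO replicate 1 or 3 or Id1KO replicate 1 or 2 (0.0521 to 0.0989). Ms4a3, Elane, Prtn3, Ltf, Lcn2, Camp and Chil3 did not pass.

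A stricter view treats the libraries of a genotype as 1 sample. With counts summed per genotype and additive effects of the 2 labels, which gives 1 shared difference for each label, 25 of 27 called results of the members were lost. The 2 that remained were the Chil3 results with the Tet2 label, whose shared difference was 1.21 (edgeR adjusted p = 0.0287). The shared difference of the Id1 label was -0.31 for Mpo (edgeR adjusted p = 0.0881) and -0.26 for Elane (edgeR adjusted p = 0.268).

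As a share of all counts, the 5 primary genes made up 1.61 ± 0.012% in Tet2KO (SD, n = 3 libraries), 1.40 ± 0.0049% in WT, 1.27 ± 0.045% in Id1KO and 1.27 ± 0.053% in dKO. The larger share of mitochondrial and small structural RNA in WT lies within these totals, and shares of totals without this RNA are not given here. After TMM scaling the summed primary level was 15841 to 16079 CPM in Tet2KO, 14370 to 14441 in WT, 12156 to 13117 in Id1KO and 11932 to 13111 in dKO. Mpo gave 66.7 to 69.8% of those counts by label. The 5 secondary genes made up 0.00201%, 0.00168%, 0.00192% and 0.00257% in the same order. For 1000 primary counts there were 2.02 ± 0.22 secondary counts in dKO, 1.51 ± 0.11 in Id1KO, 1.25 ± 0.066 in Tet2KO and 1.20 ± 0.086 in WT. The 3 dKO libraries (1.86 to 2.28) were above all others, those of Id1KO (1.42 to 1.64) came next without overlap, and WT (1.11 to 1.28) and Tet2KO (1.18 to 1.31) overlapped. The log2 ratio was 0.75 higher in dKO than in WT, with an SD of 0.19 for the difference between 2 single libraries. It was 0.70 higher in dKO than in Tet2KO (SD 0.17 on the same basis). Without dKO replicate 2, which had the ratio of 2.28 where the other dKO libraries had 1.86 and 1.93, these differences were 0.66 and 0.61. For Tet2KO against WT it differed by 0.06, less than the SD of 0.13 between single libraries, and changed sign to -0.05 without Lcn2. Without Lcn2 the difference was 0.06 in place of 0.34 for Id1KO against WT, and 0.66 in place of 0.42 for dKO against Id1KO.

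**Figure D3:**
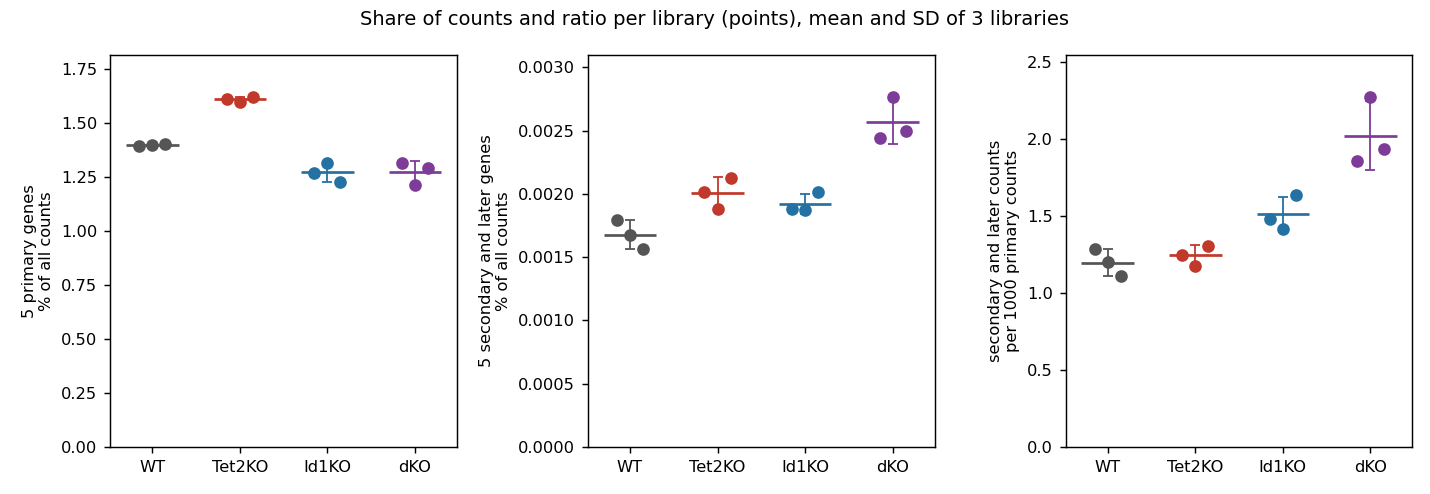
Share of all counts held by the 5 primary genes (left) and by the 5 secondary genes (middle), both in percent, and secondary counts for 1000 primary counts (right), for 12 libraries (points) with the mean and SD of 3 as bars. The dKO libraries are highest in the middle and right panels, and the Tet2KO libraries are highest on the left.

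The members differed in pattern among themselves. Over the 4 label means, centred for each gene, Elane and Ctsg lay nearest to each other, at a root mean square distance of 0.053 on the log2 scale. Camp and Ngp lay nearest to each other at 0.22, and Chil3 was the farthest from any other member, at 0.41 from Ltf. Among 9760 other genes of at least 5 CPM, the nearest to the mean profile of the primary genes were Plscr3, Slc35f5, Slc35e3, Slc22a15 and Vhl, at 0.0039 to 0.0078 over 4 labels. The nearest to that of the secondary genes were Fkbp1a, Zc3h11a, Fam122b, Zfp820 and Rab3il1, at 0.031 to 0.068. These are descriptions of 4 means and carry no test.

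Regulators of the granule genes and growth factor receptors were followed as a group of 11 genes. In Tet2KO against WT 6 rose and 4 fell, in Id1KO against WT 2 rose and 4 fell, in dKO against WT 2 rose and 4 fell, in dKO against Tet2KO none rose and 5 fell, and in dKO against Id1KO 3 rose and 4 fell. The shares of all genes called in these 5 comparisons were 32.8%, 15.0%, 19.2%, 26.4% and 19.3%. Cebpa, which commits progenitors to the granulocyte path, rose by 0.12 in Tet2KO against WT and fell by 0.17 in dKO against Tet2KO. Spi1, which encodes PU.1, rose by 0.12 and fell by 0.14 in those comparisons. Csf3r, the receptor for G-CSF, rose by 0.22 and fell by 0.25, and all of these passed edgeR's test. Those 3 genes therefore had the signs of Mpo, Prtn3 and Ctsg in both comparisons. Cebpb, Runx1 and Csf2rb also rose in Tet2KO against WT but did not pass in dKO against Tet2KO. Cebpe (-0.22), Gfi1 (-0.13), Myb (-0.10) and Csf2ra (-0.53) fell in Tet2KO against WT.

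Cebpe, whose protein drives the secondary granule genes, was lowest in dKO. It stood at 21.7 to 23.9 CPM in dKO, 25.5 to 29.2 in Tet2KO, 30.6 to 33.4 in WT and 32.7 to 35.8 in Id1KO. Cebpe fell by 0.48 in dKO against WT (edgeR adjusted p = 9.56e-06), by 0.26 against Tet2KO (edgeR adjusted p = 0.00433) and by 0.57 against Id1KO (edgeR adjusted p = 1.09e-06). In the same libraries Ltf was higher than in each of those labels. The other secondary genes were not higher in dKO throughout. Lcn2 did not pass against Tet2KO or Id1KO, and Chil3 did not pass against Tet2KO. Ngp and Camp passed only against Tet2KO, and Camp differed by -0.25 against WT and -0.09 against Id1KO. Gfi1, a repressor required for neutrophil maturation, stood at 59.5 to 61.1 CPM in dKO, below the 73.0 to 75.7 of WT, 66.4 to 69.0 of Tet2KO and 78.4 to 82.4 of Id1KO. It fell by 0.17 in dKO against Tet2KO (edgeR adjusted p = 0.00178) and by 0.42 against Id1KO (edgeR adjusted p = 3.43e-08). Runx1 rose by 0.24 in Tet2KO against WT and by 0.32 in dKO against Id1KO. Csf2ra, a subunit of the GM-CSF receptor, fell by 0.53 in both.

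**Figure D4:**
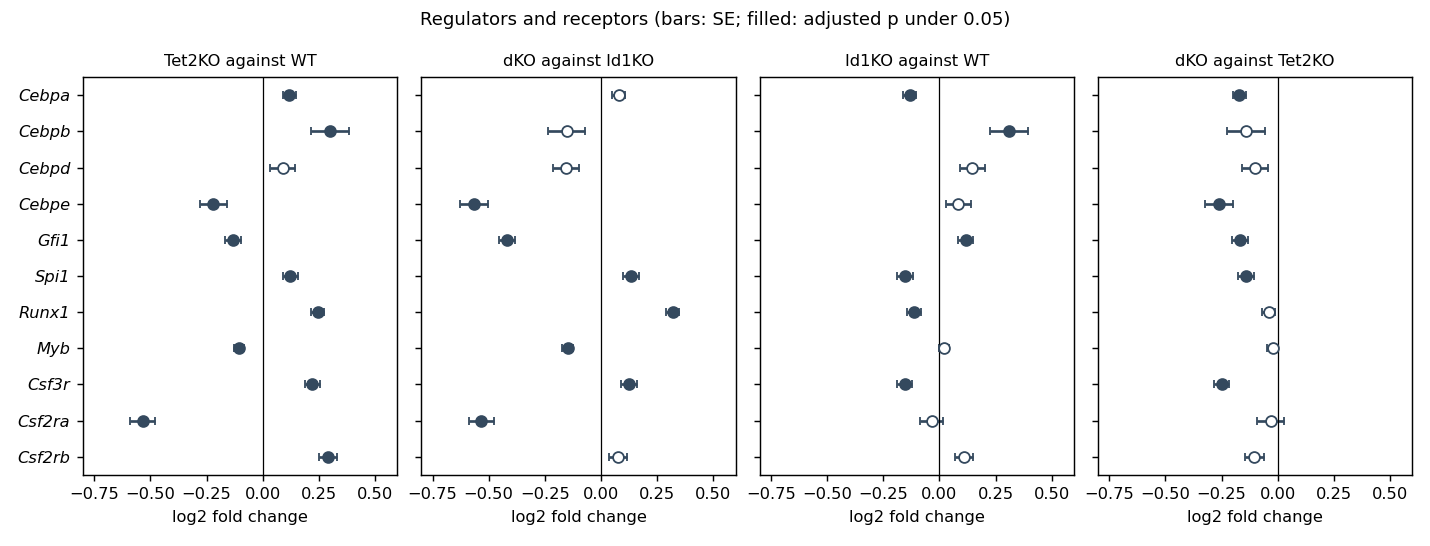
Log2 fold change of 11 regulators and receptors (horizontal axis) in 4 comparisons of genotype labels, with SE bars and filled points where the edgeR adjusted p is under 0.05. Cebpe and Gfi1 lie left of 0 in both comparisons of dKO, and Csf2ra lies left of 0 in both comparisons of the Tet2 label.

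Other genes of the primary granule and its cells were lower in dKO than in Tet2KO. Of 12 listed, 11 were tested. In Tet2KO against WT 5 rose and 1 fell, in Id1KO against WT none rose and 3 fell, and in dKO against WT 2 rose and 7 fell. In dKO against Tet2KO none rose and 10 fell, with a median of -0.24, and in dKO against Id1KO 2 rose and 5 fell. Of all genes tested, 32.8%, 15.0%, 19.2%, 26.4% and 19.3% were called in the same order. Srgn, the proteoglycan serglycin that holds proteases in granules, fell by 0.24 in dKO against Tet2KO (edgeR adjusted p = 1.47e-06). Nkg7 fell by 0.35 (edgeR adjusted p = 6.33e-08), Cst7, a protease inhibitor, by 0.20 and Plac8 by 0.11.

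Of 21 other genes of the secondary, tertiary and late granules, 19 were tested. In Tet2KO against WT 8 rose and 2 fell, in Id1KO against WT 2 rose and 1 fell, and in dKO against WT 5 rose and 7 fell. In dKO against Tet2KO, where Ltf, Camp and Ngp rose, none of these 19 rose and 10 fell, with a median of -0.19. In dKO against Id1KO 5 rose and 6 fell. The 3 of 19 called in Id1KO against WT are near the 15.0% of all genes called there. For Tet2KO against WT that share was 32.8%, and for dKO it was 26.4% with Tet2KO, 19.3% with Id1KO and 19.2% with WT as the other label. Hp, which encodes haptoglobin, fell by 0.22 in dKO against Tet2KO, and the oxidase subunit genes Cyba and Ncf1 fell by 0.24 and 0.14. S100a8, a subunit of calprotectin, rose by 0.39 in Tet2KO against WT and by 0.30 in dKO against Id1KO. Cd177, a surface protein stored in secondary granules, fell by 1.27 in dKO against Id1KO (edgeR adjusted p = 3.87e-05). Of 8 genes for sorting and secretion of granules, 2 rose and 1 fell in Tet2KO against WT, 2 fell in Id1KO against WT, 2 rose and 1 fell in dKO against WT, 3 fell in dKO against Tet2KO, and 3 rose and 1 fell in dKO against Id1KO. With 8 genes, these counts are read against the same shares of all genes.

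Markers of cells that make secondary granule proteins or Chil3 were read beside these values. The summed level of 8 mature neutrophil markers was 118.9 to 126.2 CPM in Tet2KO, 101.8 to 107.7 in WT, 101.8 to 103.7 in dKO and 91.4 to 96.5 in Id1KO. Csf3r, which progenitors also express, gave most of these sums, with means of 111.3, 95.6, 93.6 and 85.8 CPM in the same order. Of the 5 markers tested, 2 rose and 3 did not pass in Tet2KO against WT. In dKO against Tet2KO 2 fell and 3 did not pass. The shares of all genes called there were 32.8% and 26.4%. Of the defining markers, Ly6g and Stfa2l1 had at most 2 and 1 counts in a library. Retnlg had 5 to 15 and Il1b 7 to 14. Cxcr2, a chemokine receptor of mature neutrophils, had 101 to 183. It rose by 0.41 in Tet2KO against WT (edgeR adjusted p = 0.00592) and fell by 0.39 in dKO against Tet2KO (edgeR adjusted p = 0.0114). Of 9 monocyte and dendritic markers tested, 6 rose and 2 fell in Tet2KO against WT. In dKO against Id1KO 8 rose and none fell, and in dKO against WT 5 rose and 1 fell. Chil3 rose in each of these comparisons, in which 32.8%, 19.3% and 19.2% of all genes were called. In dKO against Tet2KO 2 of these markers rose and 4 fell, where 26.4% of all genes were called. Chil3 differed there by 0.21 and did not pass (edgeR adjusted p = 0.293). In Id1KO against WT none of these markers rose and 8 fell, where 15.0% of all genes were called, and Chil3 did not pass. The summed level of the monocyte and dendritic markers was 2353 to 2395 CPM in Tet2KO and 2270 to 2312 in dKO, above both labels without the Tet2 knockout. The part of mature neutrophils and monocytes in the secondary counts was not tested.

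Lists of other cell types gave these summed levels over WT, Tet2KO, Id1KO and dKO. Megakaryocyte markers stood at means of 160.9, 169.4, 232.0 and 169.5 CPM. Mast cell, basophil and eosinophil markers stood at 388.5, 354.4, 476.3 and 310.1 CPM, and those of stem and multipotent cells at 462.1, 482.6, 404.0 and 401.5. Cd34 alone had means of 343.9, 365.5, 282.4 and 292.9 CPM, most of the stem and multipotent sums. In Id1KO against WT 1 of the 9 stem and multipotent genes fell and 8 did not pass, where 15.0% of all genes were called. Their median there was 0.10. B lineage markers were at 30.5, 37.6, 28.4 and 28.0 CPM, and T and NK lineage markers at 1.31, 2.30, 1.07 and 2.37. The T and NK sums rest on few counts. Only 2 of those 7 genes passed the filter, and the highest, Klrb1c and Ncr1, had 6 to 19 and 3 to 17 counts a library. No gene of these lists was at 0 in all 12 libraries.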

How the data were processed

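RNA of sorted cells was extracted with Qiagen's RNeasy Micro Kit, and libraries were made from total RNA with a stranded Illumina kit that depletes ribosomal RNA, per the labels' protocols. The authors deposited estimated counts per gene, not normalized, and the submitters' processing notes name STAR, RSEM and mm10. The annotation and strand setting are not given in the sources used here. All 55450 identifiers matched GENCODE M21. Mitochondrial and small structural RNA genes took 7.40 to 10.9% of counts.

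Counts were rounded, filtered with filterByExpr (minimum count 10), scaled by TMM and fitted with edgeR's quasi-likelihood model over all 12 libraries with 1 mean per genotype. F-tests were two-sided, with Benjamini-Hochberg adjustment over 14346 genes and a threshold of 0.05. All 10 members passed the filter. CPM used the TMM scaling. Members and lists were chosen with earlier results of these data known. Named genes were the members, Tet2, Id1, 11 regulators and receptors, the 4 highest per kb of 3 companion lists with any called by over 2-fold, and the 5 nearest profiles. The edgeR and DESeq2 fits were tried on counts simulated for Tet2KO against WT with independent libraries. That simulation does not cover libraries that are repeats of 1 cell sample. Alternatives were DESeq2, scaling by RLE, by upper quartile or without structural RNA, no filter, a stricter filter, a replicate block, leaving out each library, only the libraries compared, and summed libraries. Similar sequences were sought with blast 2.17.0. Fits ran in edgeR 4.0.16 and DESeq2 1.42.0 under R 4.3.3, and tables and plots in Python 3.11.15 with matplotlib 3.10.9.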

Additional observations from a re-analysis of the deposited data

Results flagged for a closer look

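A difference of the Id1 label between the libraries with and without the Tet2 label (the interaction, dKO against Tet2KO less Id1KO against WT) passed edgeR's test for 3 members and 5 of 11 regulators, where 14.5% of all genes passed. On the log2 scale it was -0.16 for Mpo, -0.18 for Ctsg and 0.83 for Ngp. For the regulators it was -0.45 for Cebpb, -0.25 for Cebpd, -0.35 for Cebpe, -0.28 for Gfi1 and -0.21 for Csf2rb. The value of Mpo lost its call without any of 5 single libraries (edgeR adjusted p of 0.0521 to 0.0989), that of Ngp with DESeq2 (adjusted p = 0.0751), and 2 members passed with the replicate numbers as a block. Cebpd was lost without any of 9 single libraries (edgeR adjusted p of 0.0539 to 0.101) and with DESeq2 (adjusted p = 0.164), and Csf2rb without 1 (edgeR adjusted p = 0.0513). No explanation was tested.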

How the results depend on the processing

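Of 60 results of members, 30 passed edgeR's test, and 22 of these passed under every alternative except summed libraries. None of the 30 changed sign outside summed libraries. Of the called results of other named genes, 23 of 152 lost their call with DESeq2. With summed libraries 118 of 132 lost it and 8 changed sign. Leaving out 1 library moved the log2 difference across 0 for Ltf in Id1KO against WT (-0.086 to 0.046), Ms4a3 in dKO against WT (-0.010 to 0.035) and in dKO against Tet2KO (-0.033 to 0.00069), and Mpo (-0.022 to 0.052) and Camp (-0.15 to 0.022) in dKO against Id1KO, none of which passed the test in full.

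Libraries summed per genotype, with additive effects, turned some differences by construction, since each label then has 1 difference. For Tet2KO against WT these were Elane (-0.021), Ctsg (-0.0019), Ms4a3 (-0.011), Nkg7 (-0.032), F13a1 (0.053), Itga2b (-0.11) and Cpa3 (-0.036). For Id1KO against WT they were Ltf (0.23), Camp (0.22), Ngp (0.19), Chil3 (0.058), Gfi1 (-0.020) and F13a1 (0.0030). For dKO against Tet2KO they were Ms4a3 (0.031), Itga2b (0.13) and Prg2 (0.12), and for dKO against Id1KO Ngp (-0.064). All genes called were then 232, 7, 11, 7 and 232 in the 5 comparisons, and members called 1, 0, 0, 0 and 1. DESeq2 called 1220 genes in Id1KO against WT, 1640 in dKO against WT, 2503 in dKO against Tet2KO, 1695 in dKO against Id1KO and 1180 in the interaction.

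Members called in dKO against Id1KO were 2 with only the libraries compared, and 2 to 4 when 1 library was left out. Replicate numbers did not pair the libraries: deviations of same-numbered libraries correlated at -0.10 to 0.11 over 18 pairs. With the numbers as a replicate block, members called were 6, 3, 6, 7 and 2 in the 5 comparisons, 2 in the interaction, and all genes called 4523, 1952, 2565, 3592, 2576 and 1871. The secondary-to-primary log2 ratio turned to -0.068 from the mean of log2 CPM and -0.052 without Lcn2 in Tet2KO against WT. It moved to 0.11 and 0.062 in Id1KO against WT, to 0.66 without Lcn2 in dKO against Id1KO, and to 0.71 without Lcn2 in the interaction. Secondary genes rest on 16 to 162 counts a library, which limits what they can show.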

Other observations

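The 2 most abundant mast cell, basophil and eosinophil markers were lower in dKO than in the labels with 1 knockout. Prg2, which encodes eosinophil major basic protein, fell by 0.22 in dKO against Tet2KO (edgeR adjusted p = 3.39e-05) and by 0.95 in dKO against Id1KO (edgeR adjusted p = 6.74e-15). Cpa3, a mast cell carboxypeptidase, fell by 0.35 and 0.26 in the same comparisons. In dKO against Tet2KO 5 of the 8 markers of that list fell and none rose, where 26.4% of all genes were called (13.4% lower). In dKO against Id1KO 4 of the 8 fell and 1 rose, where 19.3% of all genes were called (8.7% lower).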
